A study of Bos taurus with 9 samples.

Results

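The DDX and DHX genes encode the DEAD-box and DEAH-box RNA helicases. They were chosen by gene symbol alone: every gene of the expression table whose bovine NCBI symbol begins with DDX or DHX followed by a number, leaving out the RIG-I-like receptor DHX58 and DDX6, DDX4 and DDX39B. That gave 47 of 17852 genes, 32 DDX and 15 DHX, out of 51 genes with such a symbol. The rule used no expression value, but the family was proposed with results of these data known, so its counts and p-values describe it and are not independent support.

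The libraries came from total RNA of bovine (Bos taurus) oocytes at metaphase II, the arrested stage at which a mature egg waits for fertilization. There were 3 control libraries, 3 of microplastics-exposed oocytes, and 3 of oocytes that received taurine (a sulfur-containing amino acid derivative) beside the microplastics. They are called here control 1 to 3, microplastics 1 to 3 and taurine 1 to 3, and every taurine library was also exposed to microplastics. The labels name no particle type, dose, duration, breed, age or number of oocytes pooled. Nor do they state whether replicate libraries trace to different cows or cultures. The p-values therefore speak of the scatter among these libraries, part or all of which may be technical.

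Both families use the energy of ATP to open RNA duplexes or to strip proteins from RNA. DEAD-box enzymes typically pry apart short duplexes in place, while DEAH-box enzymes typically move along a strand and pull, and several of them act in the spliceosome. Family members work at nearly every step of RNA life, from ribosome assembly and splicing to nuclear export, translation and decay. A metaphase II oocyte is transcriptionally quiet and lives on stored maternal mRNA, so its helicase mRNAs are part of that store.

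Libraries held 21.17 to 22.74 M estimated reads, and 3 counts in a library equal 0.132 to 0.142 CPM (counts scaled to the library total), a limit that covers counting error only. Scaling factors for library composition (TMM) were 0.835 to 0.972 in control, 1.214 to 1.253 in microplastics and 0.841 to 0.958 in taurine libraries. Over all tested genes control 3 correlated best with taurine 1 (r = 0.976, against 0.964 with its best fellow control), and taurine 3 with control 2 (0.977, against 0.962). Control 2 in turn was nearest to taurine 3 (0.977, against 0.975 within its group). Taurine 1 and taurine 2 were each nearest to control 3 (0.976, against 0.973). By this measure the control and taurine groups did not separate cleanly. Control 3 and taurine 3 had the lowest best correlation with a library of their own group. Where leaving out both libraries changed the call of a member, its value without them is given too. The 2 libraries were picked from these same data. Control 3 was the highest control for 24 of 45 tested members, and taurine 3 the lowest taurine library for 22. Leaving them out therefore shifts values against control upward for such members and narrows the scatter in part by construction. Calls and p-values without them are description and not support. The marker values that follow are CPM divided also by the TMM factors. These factors were largest in the microplastics libraries, so the scaling lowered their sums most, and the group differences depend on it. The 12 oocyte markers were all detected in every library. They summed to 90185 to 119931 CPM in control, 38424 to 47031 in microplastics and 81458 to 107947 in taurine libraries. Markers of cumulus and granulosa cells, the follicle cells around the oocyte, covered 15 genes. They summed to 508.6 to 608 CPM in control, 416.5 to 517.4 in microplastics and 515.2 to 565.9 in taurine libraries. The FSH receptor gene FSHR was at 0 in 8 of 9 libraries, while STAR had 223 to 382 CPM and HAS2 72 to 137 CPM. TNFAIP6 stood at 66.1 CPM in control 2 and 33.3 in taurine 3. It had 1.03 and 1.53 CPM in control 1 and 3, and 1.05 and 1.16 in taurine 1 and 2. Leukocyte, endothelial, erythroid and stromal markers each summed to at most 37.36 CPM in any library. The part of these shifts in the results below was not tested, and in bulk RNA fewer cells of a type and less RNA per cell cannot be told apart.

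DDX25 was the most abundant member in every group. Per transcript length, in the deposited TPM values, which are scaled for length and depth, it stood at 279, 291 and 198 in control 1 to 3, at 127, 163 and 163 with microplastics and at 220, 316 and 415 with taurine. All microplastics libraries lay below all control and all taurine libraries. Its control mean of 256.2 ± 50.66 TPM (SD, n = 3) ranked 634 among all genes, and its control range did not overlap that of the next member. DDX25 is known as a hormone-regulated helicase of germ cells, related to the export helicases of the DDX19 group.

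DDX24, a nucleolar helicase, followed at 62.24 ± 12.79 TPM in control. Next came DDX20, a partner of the SMN complex that assembles splicing particles, at 49.00 ± 8.885 TPM. DDX3X, a helicase of translation initiation, stood at 46.40 ± 36.79 TPM, with 24.2 and 26.1 TPM in control 1 and 2 and 88.9 TPM in control 3. DDX43, a germline helicase, stood at 45.21 ± 2.781 TPM, and DHX36, which unwinds G-quadruplexes, at 39.65 ± 10.24 TPM, the highest DHX member. From DDX24 down to DDX50 at 37.61 ± 4.144 TPM each member's control range overlapped that of its neighbour, so this stretch of the order is not resolved. In all, 20 members reached 10 TPM in control and 5 (DDX51, DDX11, DHX33, DHX34 and DDX53) stayed under 1 TPM. The median control level was 9.763 TPM for DDX and 3.247 TPM for DHX members, beside 4.842 TPM over all genes tested.

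**Figure D1:**
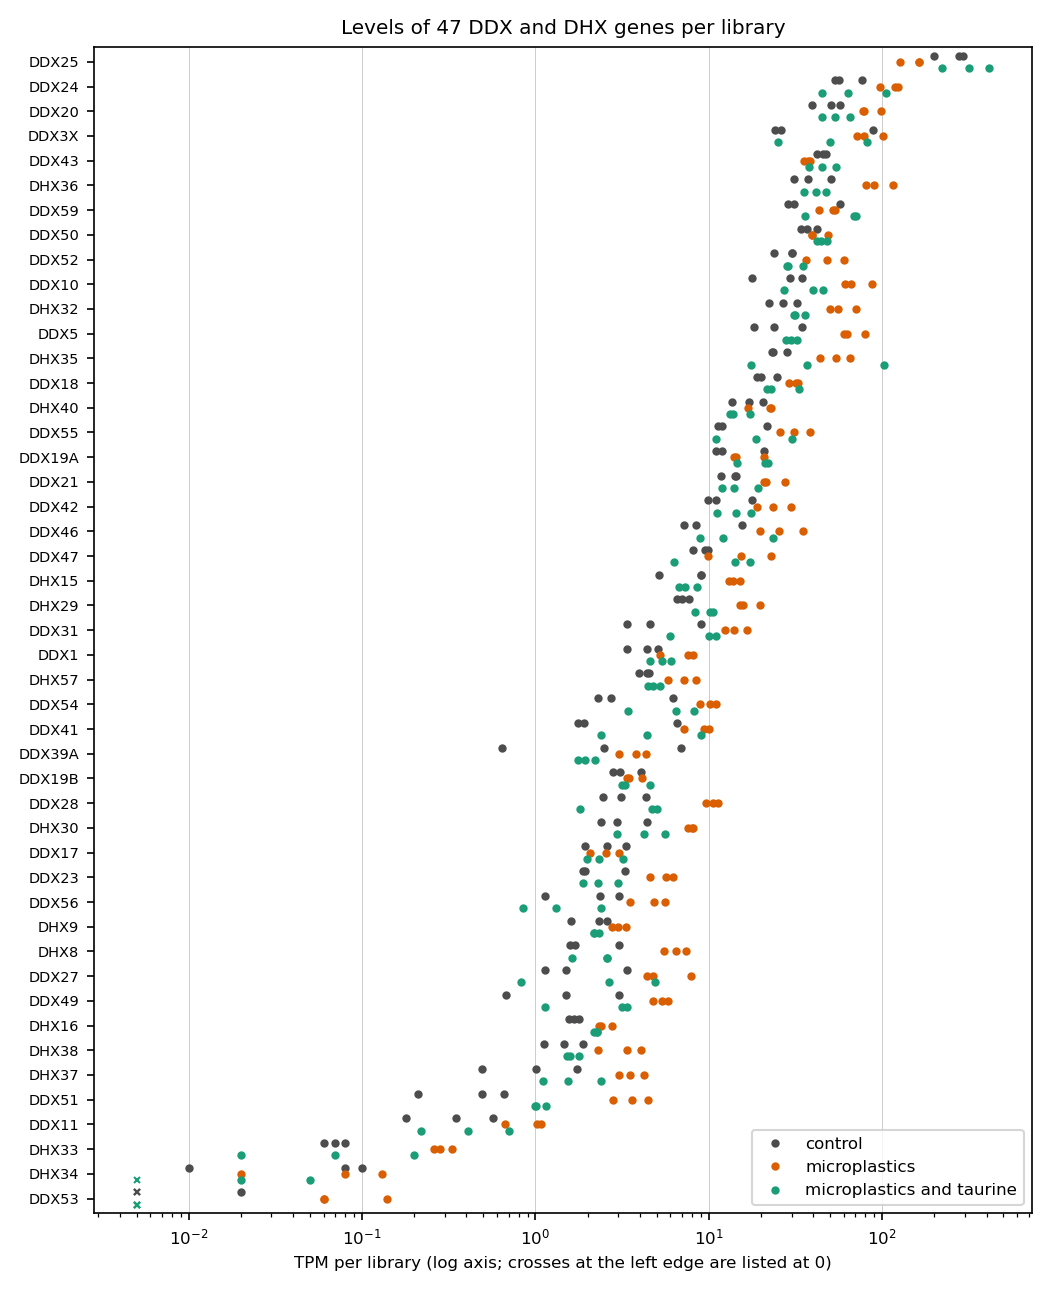
TPM of the 47 DDX and DHX genes in each of 9 libraries on a log axis, ordered by the control mean; grey, orange and green points are control, microplastics and taurine libraries, and crosses are libraries listed at 0. DDX25 stands alone at the top, and many orange points lie to the right of the grey ones. TPM, unlike the TMM-scaled CPM, is not corrected for the change in library composition.

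Summed over the family (mean ± SD, n = 3), DDX members held 751.6 ± 78.66 TPM in control libraries, 1004 ± 129.6 in microplastics libraries and 911.9 ± 17.48 in taurine libraries. DHX members held 139.6 ± 20.91, 294.7 ± 34.26 and 177.6 ± 54.42 TPM. These sums carry the composition change and were not tested. All comparisons below therefore use CPM scaled by TMM, with log2 fold changes ± SE and Benjamini-Hochberg adjusted p-values from edgeR's quasi-likelihood test over 13206 genes. A gene is called higher or lower at an adjusted p under 0.05.

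Of the 47 members, 45 passed the filter on low counts. DHX34, a helicase of nonsense-mediated decay, had 0 to 8 counts in any library. DDX53, a germline relative of DDX43, had 7, 3 and 3 counts with microplastics, 1 in control 3 and 0 in the other libraries. Both lie near the limit that 3 counts allow, so no fold is given. DDX54 is the only member with more than 1 transcript row: XM_015467154 took 63.7 to 83.6% of its reads per library and XM_015467153 the rest, and neither transcript was called in any comparison.

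The first question is which helicases differ between exposed and control oocytes. With microplastics, 9 members rose (20% of 45, beside 9.68% of all genes) and 2 fell (4.44%, beside 14.7% of all genes), so 11 were called where 24.3% of all genes were. The risers work in ribosome assembly (DDX51, DHX37, DDX10), splicing (DHX8, DDX5), translation and RNA structure (DHX36, DHX29) and mitochondria (DDX28), with DHX32 of no single textbook role. The fallers were the germ-cell helicases DDX25 and DDX43. The median member stood at log2 0.47, beside 0.04 over all genes, with 33 values above 0 and 12 below. The count of calls moved when libraries were left out. It was 4 without control 1 or microplastics 3, 5 without control 2, 7 without microplastics 2 and 8 without microplastics 1. It was 9 without taurine 2, 19 without control 3, and 22 (19 higher, 3 lower) without control 3 and taurine 3. The median member ran from log2 0.35 without microplastics 1 to 0.51 without control 3. Fewer libraries also leave fewer samples to estimate the spread, and the part of this was not tested. The share of all genes called moved too: 3.67% were higher without control 1, 15% without control 3 and 19.5% without control 3 and taurine 3. All microplastics libraries lay above all controls for 15 members and below for 5, beside 22.4% and 22.5% of all genes.

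**Figure D2:**
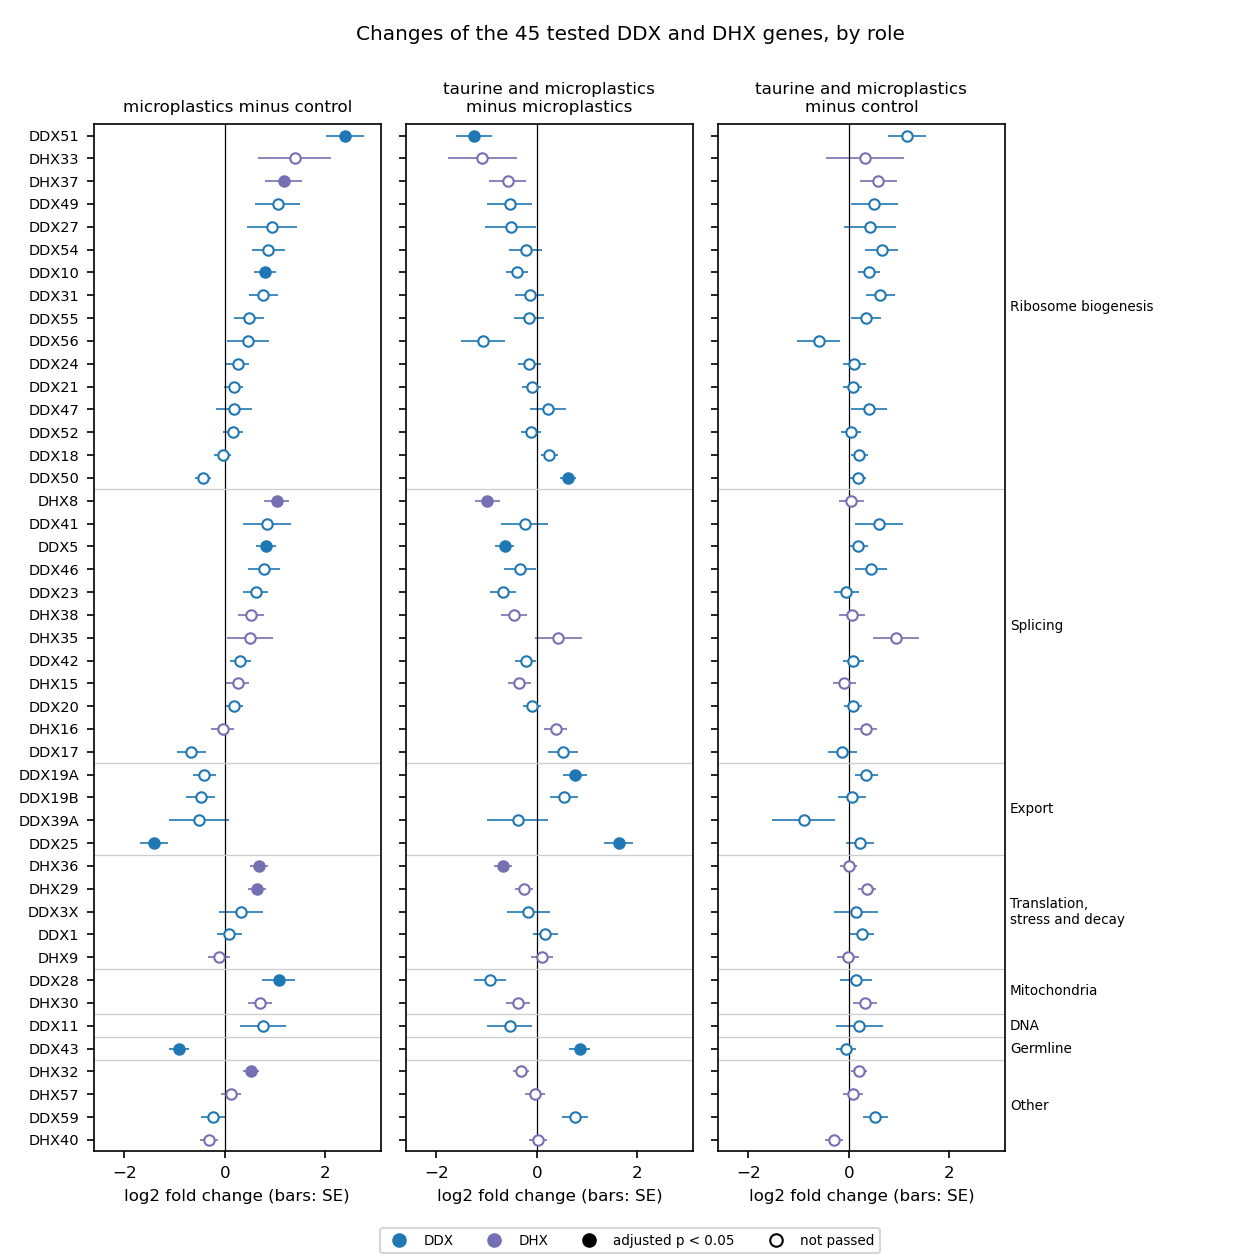
Log2 fold change with SE of the 45 tested members in each comparison, ordered by role and, within a role, by the change with microplastics; blue is DDX, purple is DHX, and filled points passed an adjusted p of 0.05. Filled points number 11 on the left, 8 in the middle and 0 on the right, and the export row group lies to the left of 0 with microplastics.

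DDX25 fell the most. It stood at 456, 457 and 259 CPM in control 1 to 3, at 123, 167 and 154 CPM with microplastics and at 299, 436 and 635 CPM with taurine. The 3 microplastics libraries were below all others, and taurine 3 was the highest of the 9. The log2 change with microplastics was -1.40 ± 0.28 (adjusted p = 0.00483 by edgeR), and with taurine added to microplastics 1.63 ± 0.29 (adjusted p = 0.00323 by edgeR). Both calls held in all 20 alternative analyses. DDX43, known for a part in the piRNA pathway of germ cells, stood at 119, 109 and 84.2 CPM in control, 55.3, 55.2 and 55.1 with microplastics and 77.8, 94.7 and 126 with taurine. The microplastics libraries did not overlap either group, at log2 -0.91 ± 0.20 (adjusted p = 0.00779 by edgeR) and, with taurine against microplastics, 0.85 ± 0.20 (adjusted p = 0.0161 by edgeR). The summed oocyte markers moved the same way. BTG4 was the largest part of that sum, with a mean of 59410 CPM in control, 19790 with microplastics and 52890 with taurine. Of these 12 markers, 7 fell and 2 rose with microplastics, beside 14.7% and 9.68% of all genes. Of the cumulus and granulosa markers, 5 of 12 tested fell and none rose with microplastics (median log2 -0.59), beside the same shares of all genes. With taurine added 4 rose and none fell (median 0.77), beside 10.1% and 4.13% of all genes. STAR, the largest part of their sum, did not move this way (log2 0.13 and -0.13). The summed CPM of this list overlapped between microplastics (up to 517.4) and both control (from 508.6) and taurine libraries (from 515.2). The part of either marker list in the change of these 2 helicases was not tested. The taurine call of DDX43 was lost without microplastics 1, 2 or 3 (log2 0.83 each) and without taurine 3 (0.65), and both of its calls were lost with scaling by library size only (-0.42 and 0.40).

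Among 16 members of ribosome biogenesis, 3 rose and none fell with microplastics, beside 9.68% of all genes higher and 14.7% lower. Of the 16 values, 14 were above 0 (median log2 0.63). DDX51, needed for maturation of large-subunit rRNA, rose the most of all members. It had 1.14, 0.476 and 1.24 CPM in control, 6.15, 4.09 and 4.86 with microplastics and 1.95, 2.27 and 2.19 with taurine, from 9 to 26 reads per control library. The 3 groups did not overlap, with taurine between the others; the log2 change with microplastics was 2.39 ± 0.38 (adjusted p = 0.00118 by edgeR), a call that held in the 19 alternatives in which it was tested. DHX37, which helps release a snoRNA from the small-subunit precursor, stood at 2.07, 4.12 and 5.91 CPM in control and 8.87, 8.12 and 10.3 with microplastics. The groups did not overlap (log2 1.17 ± 0.37), but the call was lost when control 1 (0.86), control 2 (1.18), microplastics 1, 2 or 3 (1.20, 1.26 and 1.08) or taurine 2 (1.17) was left out. DDX10, of the small-subunit processome, stood at 59.8, 95 and 93.9 CPM in control and 124, 140 and 170 with microplastics. Its groups did not overlap (log2 0.80 ± 0.22), a call that ended on leaving out control 1 (0.61), microplastics 2 (0.84) or microplastics 3 (0.68).

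The other 13 ribosome biogenesis members did not pass. DDX31 and DDX54, both nucleolar, stood at log2 0.77 ± 0.29 and 0.87 ± 0.33 (adjusted p = 0.0702 and 0.0735 by edgeR), with control 3 the highest control of each. Without control 3 and taurine 3, a choice made from these same data, both were called (1.15 and 1.32, adjusted p = 0.00157 and 0.00083 by edgeR). So were DDX27 (1.40 in place of 0.94), DDX49 (1.57 in place of 1.05) and DDX55 (0.75 in place of 0.49), with adjusted p = 0.00687, 0.00436 and 0.0235 by edgeR. DDX50 and its paralog DDX21, which share a chromosome with 1 gene between them in the RefSeq gene table, stood at -0.43 ± 0.16 and 0.18 ± 0.19. How the counting split reads between such near copies is not given in the sources used here, so the values of DDX21, DDX50, DDX19A and DDX19B are uncertain. DHX33 had 3 or 4 reads in each control library and 11 to 15 with microplastics, too few for a firm value (log2 1.39 ± 0.72).

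Among 12 splicing members, 2 rose and none fell with microplastics (9.68% and 14.7% of all genes), with a median of log2 0.52. DHX8, which releases spliced mRNA from the spliceosome, stood at 7.62, 6.87 and 11 CPM in control, 17.5, 15.5 and 19.2 with microplastics and 9.65, 9.84 and 6.89 with taurine. The microplastics libraries lay above all 6 others, at log2 1.03 ± 0.25 (adjusted p = 0.012 by edgeR); without control 1, control 2 or microplastics 3 (0.96, 0.90 and 0.97) the call was lost. DDX5, a cofactor of splicing and of microRNA processing, stood at 46.0, 57.6 and 69.3 CPM in control, 94.4, 95.6 and 116 with microplastics and 62.1, 59.3 and 75.6 with taurine. Here too the microplastics libraries lay above all 6 others, at log2 0.82 ± 0.19 (adjusted p = 0.01 by edgeR), and this call held in all 20 alternatives. Its close paralog DDX17 stood on the other side of 0, at -0.66 ± 0.29 (adjusted p = 0.12 by edgeR), with 9.91, 16.4 and 10.6 CPM in control and 9.24, 6.59 and 7.55 with microplastics. The other 9 ranged from -0.04 (DHX16) to 0.84 (DDX41) and did not pass. Without control 3, 5 splicing members rose in place of 2. Without control 3 and taurine 3, DDX41 (1.57), DDX46 (1.07 in place of 0.78) and DDX23 (0.83 in place of 0.62) were called higher and DDX17 (-0.74) lower, with adjusted p = 0.00201, 0.0113, 0.0213 and 0.0478 by edgeR.

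The 4 export members all had values below 0 with microplastics, and 1 (DDX25, above) fell, beside 14.7% of all genes. DDX19A and DDX19B, which release mRNA-bound proteins at the nuclear pore, stood at -0.41 ± 0.23 and -0.48 ± 0.28, and DDX39A at -0.51 ± 0.60. With scaling by library size only these 3 values were at or just above 0 (0.05, 0.01 and 0.0029), so their sign depends on the scaling. DDX39A had 10.1 CPM in control 1 and 0.898 and 2.91 in control 2 and 3; without control 1 its value was 0.76.

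Among 5 tested members of translation, stress and decay, 2 rose with microplastics, beside 9.68% of all genes. DHX36 stood at 115, 134 and 153 CPM in control, 200, 190 and 252 with microplastics and 148, 131 and 124 with taurine. The microplastics libraries lay above all 6 others (log2 0.68 ± 0.18), and the call was lost without control 1 (0.58), control 2 (0.68) or microplastics 3 (0.56). DHX29, which helps the small ribosomal subunit scan structured leaders, stood at 32.9, 33.9 and 31.1 CPM in control, 47.2, 47.8 and 57.1 with microplastics and 44.0, 35.3 and 47.4 with taurine. Its control libraries were below all 6 others (log2 0.64 ± 0.18 with microplastics), and the call was lost without control 1 (0.64), control 2 (0.66) or microplastics 3 (0.56). DDX3X, DDX1 and DHX9 stood at 0.32 ± 0.44, 0.09 ± 0.25 and -0.11 ± 0.22. Without control 3 and taurine 3, DDX3X was called, at 1.04 ± 0.22 (adjusted p = 0.00286 by edgeR).

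DDX28, which assembles the mitochondrial ribosome, rose: it stood at 4.47, 5.44 and 6.29 CPM in control, 11.3, 10.9 and 11.8 with microplastics and 7.08, 7.72 and 3.06 with taurine. The microplastics libraries lay above all 6 others (log2 1.07 ± 0.32), but the call was lost without control 1 (0.95), control 2 (1.07) or microplastics 1, 2 or 3 (1.09, 1.11 and 1.05). DHX30, its partner in mitochondrial RNA granules, stood at 0.71 ± 0.24 (adjusted p = 0.0529 by edgeR), with no overlap between microplastics and control; without control 3 and taurine 3 it was called (0.88, adjusted p = 0.00988 by edgeR). DHX32 rose by log2 0.52 ± 0.16, from 69.9, 81.2 and 81.4 to 105, 99.6 and 129 CPM; its groups did not overlap, and leaving out control 1, control 2, microplastics 1, 2 or 3 or taurine 2 ended the call, with values of 0.45, 0.55, 0.57, 0.61, 0.42 and 0.52. The DNA helicase DDX11, which acts with cohesin, stood at 0.76 ± 0.46, and DDX59, DHX40 and DHX57 at -0.23 ± 0.25, -0.32 ± 0.18 and 0.12 ± 0.20. With library size only DDX59 and DHX40 were above 0 (0.23 and 0.16), and with the length trend removed DHX57 was below 0 (-0.11) and DHX40 was called lower (-0.54).

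**Figure D3:**
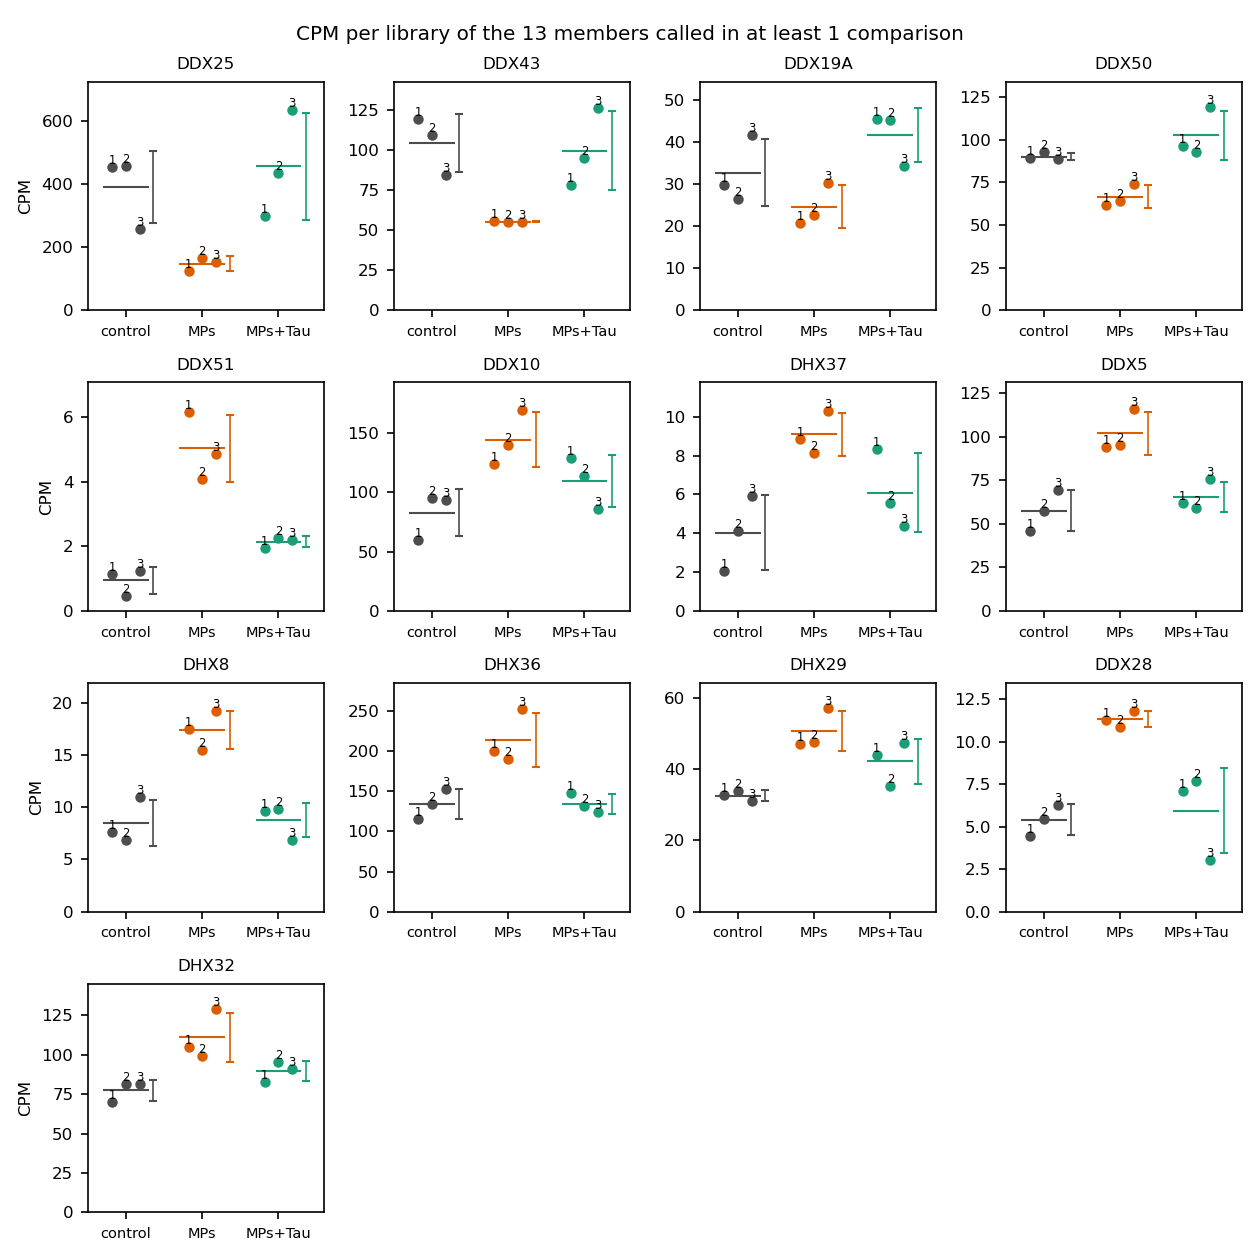
CPM per library of the 13 members called in at least 1 comparison, with replicate numbers; horizontal lines are group means and bars the SD (n = 3), and each axis starts at 0. In DDX25, DDX43 and DDX50 the microplastics points are the lowest of the 9, and in DDX51, DHX8, DDX5, DHX36, DDX28 and DHX32 they are the highest.

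The second question is which helicases differ when taurine was added to microplastics. Here 4 members rose (DDX25, DDX43, DDX19A and DDX50) and 4 fell (DDX51, DHX8, DHX36 and DDX5). Each direction is 8.89% of 45 members, beside 10.1% of all genes higher, 4.13% lower and 14.2% in either direction. The median member stood at log2 -0.22, beside -0.02 over all genes, with 14 values above 0 and 31 below. All taurine libraries lay above all microplastics libraries for 7 members and below for 11, beside 18.7% and 17.4% of all genes. The count of 8 calls was 1 without microplastics 1 or 3, 3 without microplastics 2, 5 without taurine 1, 4 without taurine 2 or taurine 3, and 8 without control 3 and taurine 3. The share of all genes called moved too. Of all genes, 5.3% were higher and 1.31% lower without microplastics 1, 5.71% and 1.8% without microplastics 2, and 5.57% and 1.65% without microplastics 3. These shares were 11.5% and 4.33% without taurine 1, 7.73% and 2.05% without taurine 2, and 6.98% and 2% without taurine 3. Without control 3 and taurine 3, DDX50 was lost and DDX59 gained, at log2 0.97 ± 0.17 (adjusted p = 0.00267 by edgeR) in place of 0.76 ± 0.25 (0.0589).

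DDX19A stood at 20.8, 22.5 and 30.3 CPM with microplastics and 45.4, 45.1 and 34.3 with taurine, beside 29.8, 26.5 and 41.7 in control. Its taurine libraries lay above all microplastics libraries, at log2 0.76 ± 0.23 (adjusted p = 0.0455 by edgeR). That call was lost when control 1 or 2, microplastics 1, 2 or 3, or taurine 1 or 2 was left out, with values of 0.76, 0.76, 0.64, 0.69, 0.92, 0.69 and 0.70, and with library size only (0.34). The neighbouring DDX19B stood at 0.54 ± 0.28 and did not pass. DDX50, a nucleolar helicase, stood at 61.6, 64.3 and 74.1 CPM with microplastics and 96.2, 92.5 and 119 with taurine, beside 89.0, 92.5 and 88.5 in control. The groups did not overlap (log2 0.62 ± 0.16), and the call was lost without microplastics 1, 2 or 3 (0.55, 0.58 and 0.68) or taurine 3 (0.50), without control 3 and taurine 3 (0.49) and with library size only (0.18).

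DDX51 fell by 1.24 ± 0.36 on the log2 scale (adjusted p = 0.0377 by edgeR), DHX8 by 0.98 ± 0.25 (0.0222), DHX36 by 0.67 ± 0.17 (0.024) and DDX5 by 0.64 ± 0.19 (0.0455). For all 4 the taurine libraries lay below all microplastics libraries. The call of DDX51 was lost without any 1 of the 6 compared libraries (-1.38 to -1.08), and that of DDX5 without control 2, microplastics 1, 2 or 3, or taurine 1 or 2 (-0.71 to -0.55). The call of DHX8 was lost without microplastics 1 or 3 or taurine 3 (-1.00, -0.92 and -0.83). That of DHX36 was lost without microplastics 1 or 3 or taurine 2 or 3 (-0.74, -0.56, -0.65 and -0.62) and with the length trend removed (-0.49).

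Set side by side, 6 members were called in both comparisons, each in opposite directions: DDX25, DDX43, DDX51, DHX8, DHX36 and DDX5. The comparisons share the microplastics libraries, so opposite signs are built in part into this count. The risers DDX10, DDX28, DHX29, DHX32 and DHX37 did not pass with taurine, at log2 -0.40 ± 0.22, -0.93 ± 0.32, -0.26 ± 0.18, -0.31 ± 0.16 and -0.58 ± 0.36. DDX19A and DDX50 were called with taurine added and not with microplastics, where they stood at -0.41 and -0.43. The microplastics libraries of DDX50 still lay below all controls (61.6 to 74.1 against 88.5 to 92.5 CPM, adjusted p = 0.0717 by edgeR). With DESeq2 and with the length trend removed, DDX50 was called lower with microplastics.

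The third comparison asks how oocytes given microplastics and taurine differ from control. No member was called by edgeR (adjusted p from 0.855 to 1), beside 0.00757% of all genes, a single gene. At an unadjusted p under 0.05 there was 1 member, DDX51, at log2 1.16 ± 0.38, and DESeq2 and limma-voom also called 0 members. Of the values, 37 were above 0 and 8 below, with a median of log2 0.21 beside 0.02 over all genes. The 5 members whose taurine libraries lay above all controls were DDX50, DDX51, DHX16, DHX29 and DHX32, and none lay below all controls, beside 4.59% and 4.57% of all genes. Without control 3 and taurine 3, 5 members were called higher: DDX31, DDX3X, DDX41, DDX54 and DDX59, at log2 1.18, 1.16, 1.64, 1.33 and 1.01. They were 11.1% of the members tested, beside 4.64% of all genes in the same analysis. Both libraries were picked from these data, so part of this gain is built in.

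Several members varied widely between libraries of 1 group. DDX3X stood at 62.8, 65.0 and 185 CPM in control, 121, 116 and 152 with microplastics and 176, 109 and 60.7 with taurine. Control 3 was far above its fellow controls and taurine 3 below its fellows. DDX41, known for splicing and nucleic-acid sensing, gave 3.81, 3.96 and 11.3 CPM in control, 12, 9.78 and 12.5 with microplastics and 16.2, 8.01 and 4.82 with taurine. DDX54 gave 7.24, 8.30 and 15.8 CPM in control, 19.2, 17.9 and 20.3 with microplastics and 21.7, 17.3 and 10.1 with taurine. Its microplastics libraries lay above all controls. DHX35, a spliceosome factor, stood at 211 CPM in taurine 1 and at 77.6 and 40.9 in taurine 2 and 3; its taurine change against microplastics was log2 0.43 ± 0.46 with taurine 1 and -0.46 without it. Over the 45 tested members control 3 was the highest control for 24 and taurine 3 the lowest taurine library for 22, while taurine 1 was the highest taurine library for 24. Among microplastics libraries, number 3 was the highest for 28 members and number 2 the lowest for 27.

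**Figure D4:**
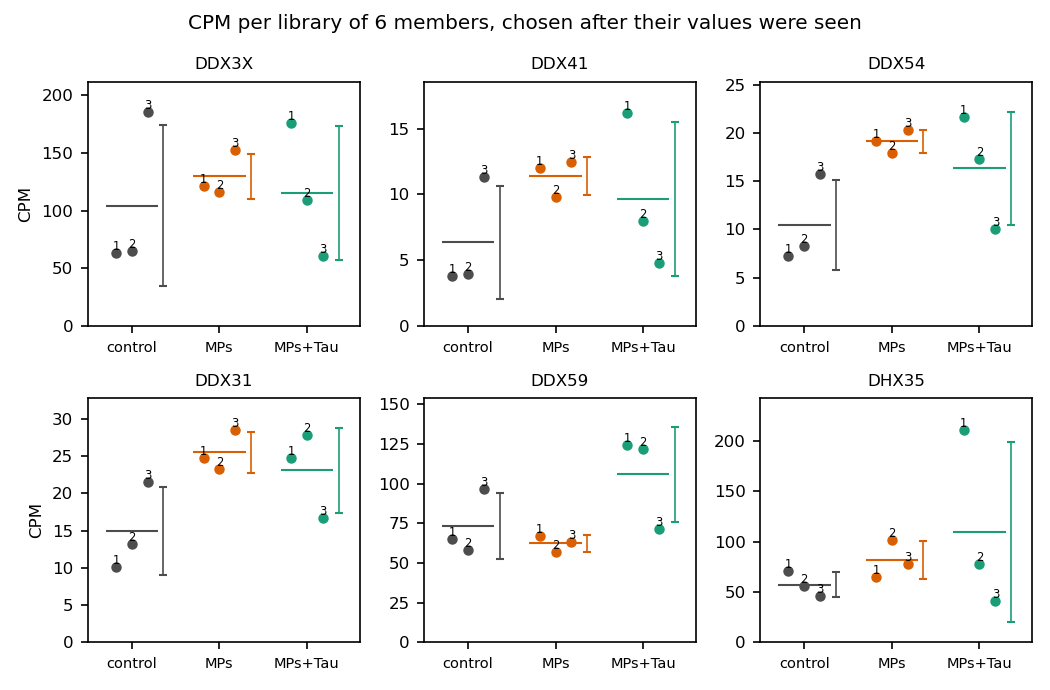
CPM per library of DDX3X, DDX41, DDX54, DDX31, DDX59 and DHX35, which were chosen for their spread after their values were seen; numbers are replicates, lines group means and bars SD (n = 3). Control 3 lies above control 1 and 2 in the first 5 genes, taurine 3 is the lowest taurine library in all 6, and taurine 1 stands alone in DHX35.

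DDX and DHX members were compared as counts and medians only. For scale, 9.68% of all genes were called higher and 14.7% lower with microplastics, and 10.1% and 4.13% with taurine added. With microplastics, 4 of 31 tested DDX members rose and 2 fell (median log2 0.31), and 5 of 14 DHX members rose and none fell (median 0.52). With taurine added, 4 DDX members rose and 2 fell (median -0.15), and no DHX member rose while 2 fell (median -0.33). These counts moved when single libraries were left out, and so did the share of all genes called. With microplastics, 3.67% of all genes were higher without control 1, 4.21% without control 2, 4.3% without microplastics 3 and 15% without control 3. The DHX median was 0.51 without control 1 and 0.55 without control 2 or microplastics 3. No DHX member rose without control 1, control 2 or microplastics 3, and 3 rose without microplastics 1, microplastics 2 or taurine 2. Of the DDX members, 11 rose without control 3, and 2 without control 1, microplastics 2 or microplastics 3. With taurine added, no DHX member fell without microplastics 1, microplastics 3 or taurine 3, and 1 fell without taurine 2. No DDX member fell without a microplastics library or without taurine 1 or 2, and 1 rose without any 1 microplastics library. Per library, the median DHX member stood, relative to its own mean over the 9 libraries, at log2 -0.35, -0.14 and -0.04 in control, 0.23, 0.20 and 0.27 with microplastics and -0.06, -0.06 and -0.11 with taurine. The same value for DDX was -0.24, -0.33 and 0.04, then 0.19, 0.06 and 0.45, then 0.25, 0.02 and -0.24. With microplastics both families' medians lay above all controls, with the same group means (0.23 and -0.18). The DHX medians with microplastics also lay above all taurine libraries, while the DDX medians overlapped those with taurine. The difference between the families itself was not tested.

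Transcript length differed between the families and moved with the changes. The implied length had a median of 2258 nt for DDX, 3454 nt for DHX and 2039 nt for all tested genes. Over all genes split into 5 length classes, the median change with microplastics went from log2 -0.35 in the shortest to 0.26 in the longest class, and with taurine added from 0.27 to -0.25. With that length trend removed, DHX members gave 1 higher and 1 lower call with microplastics in place of 5 and 0, and a median of 0.38 in place of 0.52. DDX members gave 4 higher and 3 lower, with a median of 0.19. DHX29, DHX32, DHX36 and DHX37 lost their calls there (0.40, 0.36, 0.47 and 0.97), while DHX8 kept its own. With taurine added and the length trend removed, 1 DHX member fell in place of 2, as DHX36 lost its call (-0.49). The DHX median was then -0.19 in place of -0.33.

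**Figure D5:**
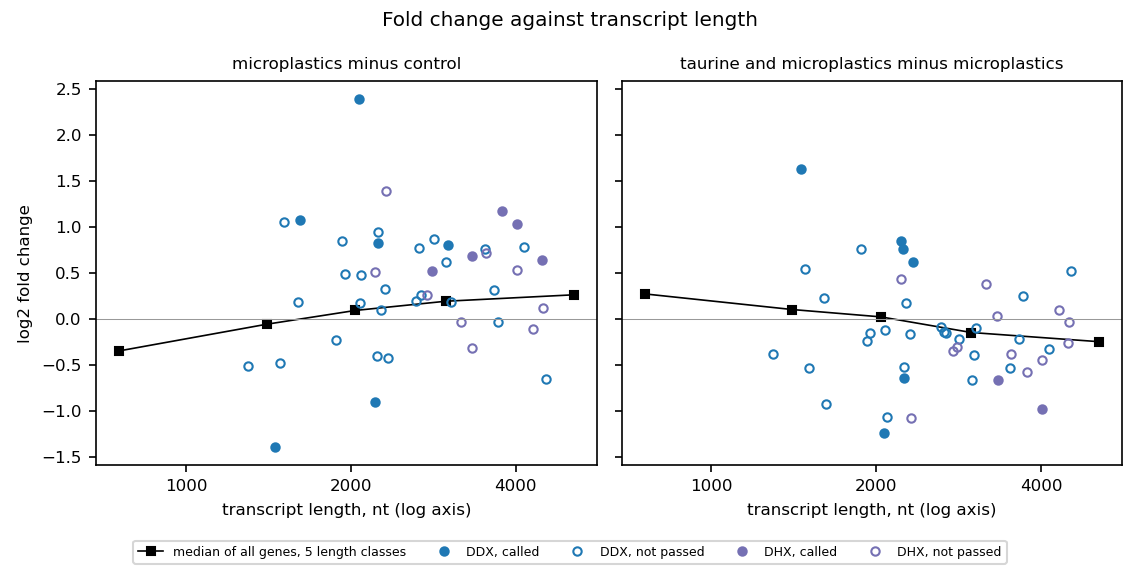
Log2 fold change of each tested member against implied transcript length in nt on a log axis, for microplastics against control (left) and taurine added to microplastics (right); filled points were called, and black squares are medians of all genes in 5 length classes. DHX members lie toward the long end, where the median of all genes is 0.26 on the left and -0.25 on the right.

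Helicases outside the 2 families and their cofactors were read from lists chosen with earlier results of these data known. Of 19 tested other RNA helicases, 3 rose and 4 fell with microplastics (median log2 0.21), and 3 rose and none fell with taurine added (median -0.19). Over all genes, 9.68% were higher and 14.7% lower with microplastics, and 10.1% and 4.13% with taurine added. The eIF4A translation helicases fell with microplastics, EIF4A1 at log2 -0.57 ± 0.15 (adjusted p = 0.018 by edgeR) and EIF4A2 at -0.48 ± 0.16 (0.0467). Both were higher with taurine added, at 0.72 ± 0.15 and 0.58 ± 0.16. EIF4A3, the helicase of the exon junction complex, stood at 0.41 ± 0.17 with microplastics and did not pass. SNRNP200, which unwinds a spliceosomal RNA duplex, and MOV10L1, of the piRNA pathway, rose by 1.22 ± 0.35 and 1.22 ± 0.40, and the RNA-binding helicase MOV10 fell by 1.08 ± 0.28 on the log2 scale. YTHDC2, a meiotic helicase, rose by 0.83 ± 0.21, and SUPV3L1, a mitochondrial helicase, fell by 0.47 ± 0.15 on the log2 scale. With microplastics, the call of EIF4A1 was lost without control 2, microplastics 1 or microplastics 3 (-0.57, -0.45 and -0.60), and those of EIF4A2 and SUPV3L1 without control 1 or 2, microplastics 1, 2 or 3 or taurine 2 (-0.54 to -0.42 and -0.51 to -0.40). That of SNRNP200 was lost without control 1 or 2 or microplastics 2 or 3 (1.01 to 1.23), that of MOV10L1 without control 1 or 2, microplastics 1, 2 or 3 or taurine 2 (1.00 to 1.32), that of MOV10 without control 1 or microplastics 1 or 3 (-1.03 to -0.92) and that of YTHDC2 without control 2 or microplastics 2 (0.74 and 0.79). With the length trend removed, MOV10L1 (0.99), YTHDC2 (0.60) and EIF4A2 (-0.50) also lost their calls with microplastics, and EIF4A2 its call with taurine added (0.52). With taurine added, the call of EIF4A1 was lost without microplastics 1 (0.60), that of EIF4A2 without microplastics 1, 2 or 3 or taurine 1 or 3 (0.47 to 0.63) and that of SUPV3L1 without microplastics 1, 2 or 3 or taurine 2 or 3 (0.49 to 0.60). With library-size scaling EIF4A2, SUPV3L1 and EIF4A1 stood at 0.0045, 0.02 and -0.09 with microplastics and at 0.15, 0.12 and 0.29 with taurine added, MOV10 stood at -0.58 with microplastics, and none of these was called. Without control 3 and taurine 3, SUPV3L1 lost its taurine call (0.52) and MOV10 gained one (0.88).

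Among 29 tested cofactors, proteins that dock onto helicases and switch their ATPase on or off, 6 rose and 5 fell with microplastics (median log2 0.34), and 2 rose and 3 fell with taurine added (median -0.11). The shares of all genes higher and lower were 9.68% and 14.7% with microplastics, and 10.1% and 4.13% with taurine added. CNOT1, the scaffold of the CCR4-NOT deadenylase complex, stood at 20.7, 25.1 and 34.9 CPM in control, 76.2, 65.2 and 71.2 with microplastics and 28.8, 27.3 and 26.6 with taurine. Its microplastics libraries lay far above all others, at log2 1.40 ± 0.20 with microplastics (adjusted p = 0.000706 by edgeR) and -1.36 ± 0.20 with taurine added (0.00119), and both calls held in all 20 alternatives. EIF4H, which stimulates eIF4A, moved the other way: 35.9, 57.6 and 64.5 CPM in control, 22.0, 20.1 and 29.5 with microplastics and 55.7, 74.0 and 62.7 with taurine. Its microplastics libraries lay below all others, at log2 -1.14 ± 0.24 (adjusted p = 0.00578 by edgeR) and, with taurine added, 1.42 ± 0.24 (0.00257). GPKOW and RBM10, G-patch proteins of the spliceosome, rose by 1.36 ± 0.28 and 1.38 ± 0.39, and MAGOHB and MAGOH, exon junction partners of EIF4A3, fell by 1.07 ± 0.19 and 0.75 ± 0.18 on the log2 scale. EIF4G1, the scaffold that holds eIF4A, rose by log2 1.09 ± 0.23 with microplastics (adjusted p = 0.00526 by edgeR). That call held in the 19 alternatives in which it was tested. With taurine added EIF4G1 fell by 0.84 ± 0.23 on the log2 scale, and EIF4G2, its relative, by 0.51 ± 0.15. The calls of GPKOW and MAGOHB with microplastics and of EIF4H with taurine added held on leaving out any 1 library. With library size only EIF4H was not called with microplastics (-0.68). The call of RBM10 with microplastics was lost without control 1 or 2 or microplastics 1, 2 or 3 (1.11 to 1.48). That of MAGOH was lost without control 1 or microplastics 3 (-0.60 and -0.64), with the length trend removed (-0.28) and with library size only (-0.26). The call of EIF4G1 with taurine added was lost without microplastics 2 or 3 or taurine 2 or 3 (-0.87 to -0.71) and with the length trend removed (-0.61). That of EIF4G2 was lost without any library other than control 3 or taurine 1 (-0.56 to -0.42) and with the length trend removed (-0.32).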

How the data were processed

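Total RNA of bovine metaphase II oocytes was extracted with TRIzol and sequenced in 9 libraries, per the labels' protocols. No coordinates are printed, since the genome build, like the aligner and counter, is not given in the sources used here. Per the file headers, the authors deposited an estimated count, a TPM and an FPKM value for each of 22590 transcript rows and each library. Some deposited estimated counts have decimals, and library totals differ. The deposited TPM values were used for levels between genes. The deposited FPKM values entered only through the transcript length that counts and FPKM imply.

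Transcript rows were added up per gene and rounded (17852 genes), and 16995 gene IDs (95.2%) were named from a RefSeq gene table of ARS-UCD2.0. The tests were run with edgeR 4.0.16 in R 4.3.3: filterByExpr (minimum count 10, minimum total 15), TMM factors, a robust quasi-likelihood fit with 1 coefficient per group over all 9 libraries (6 residual degrees of freedom), and Benjamini-Hochberg adjustment over 13206 genes. The SE is the absolute log2 fold change divided by the square root of F. The script was tested on simulated data. Alternatives were DESeq2 1.42.0, limma-voom 3.58.1, other scalings and filters, the compared groups only, a replicate block, removal of the length trend, transcripts tested 1 by 1, and libraries left out. Family medians per library used log2(CPM + 0.5).

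The members, roles, gene lists and alternatives were chosen with earlier results of these data known. Members named were all those with a fixed role, the rest of the last group (DDX59, DHX40, DHX57) and, of the called ones with at least 5 CPM in the higher group, up to 12 in each direction; of each other list, up to 3 called genes in each direction and the 3 eIF4A genes. Promoter and protein sequences were not used here.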

Additional observations from a re-analysis of the deposited data

How the results depend on the processing

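With library size only, the median over all genes went from log2 0.04 to 0.52 with microplastics and from -0.02 to -0.45 with taurine added, and gave 25 called members (24 higher, 1 lower) in place of 11 and 13 (1 higher, 12 lower) in place of 8. Under that scaling 30.3% of all genes were higher and 6.63% lower with microplastics, and 4.55% and 18.8% with taurine added. The DDX and DHX medians were then 0.75 and 1.00, and -0.57 and -0.77. With the length trend removed the DHX medians were 0.38 and -0.19. Without control 3 and taurine 3 there were 22 calls with microplastics and 5 between taurine and control. Tested 1 by 1, transcripts gave 5 called members with taurine added. Leaving out 1 library at a time gave 4 to 19 called members with microplastics and 1 to 9 with taurine added; the DHX median ran from 0.51 to 0.64 and from -0.37 to -0.31, and the DDX median from 0.20 (without microplastics 3) to 0.44 (without control 3) and from -0.44 to 0.01. Leaving out a library also leaves fewer samples to estimate the spread; the cause of the other moves was not tested.

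With a replicate block there were 8 called members with microplastics, 4 with taurine added in place of 8, and 0 between taurine and control. Deviations of same-numbered libraries from their group means correlated at -0.441 to 0.261, and 1 of 9 correlated best with its own number. With 3 libraries per group these values can neither show nor exclude a pairing by replicate number. With the block, 3 other RNA helicases were called with microplastics and 1 with taurine added, and 3 cofactors with taurine added.

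The other RNA helicases numbered 7 calls with microplastics and 3 with taurine added. They gave 4 with the length trend removed in the first comparison, and in the second 5 at the 5 CPM filter, 6 with DESeq2 and 6 with library size only. The direction turned with library size only: 10 were higher and 0 lower with microplastics in place of 3 and 4, and 0 higher and 6 lower with taurine added in place of 3 and 0. Leaving out 1 library gave 1 to 8 and 0 to 4. The cofactors gave 18 calls with microplastics without control 3 and taurine 3, in place of 11, and with taurine added 3 with the length trend removed and 9 with library size only, in place of 5. With library size only 14 cofactors were higher and 1 lower with microplastics in place of 6 and 5, and 1 higher and 8 lower with taurine added in place of 2 and 3. Leaving out 1 library gave 5 to 13 and 2 to 6. Between taurine and control, without control 3 and taurine 3, there were 1 other helicase and 7 cofactors.

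With microplastics against control, library size only turned DDX18 (0.44), DDX19A (0.05), DDX19B (0.01), DDX39A (0.0029), DDX50 (0.05), DHX16 (0.45), DHX9 (0.37), DDX59 (0.23), DHX40 (0.16), EIF4A2 (0.0045) and SUPV3L1 (0.02). The 5 CPM filter turned DDX18 and DHX16 (0.01 each), the length trend DDX1 and DDX21 (-0.01 each) and DHX57 (-0.11), limma-voom DDX39A (0.11), and leaving out control 3 and taurine 3 DDX59 (0.04). With taurine added, library size only turned DDX1 (-0.28), DDX18 (-0.18), DDX47 (-0.23), DHX16 (-0.05), DHX9 (-0.34), DHX40 (-0.40) and EIF4A3 (-0.34), the length trend DDX21 (0.04), DHX57 (0.19) and EIF4A3 (-0.03), and the 5 CPM filter DHX40 (-0.02). Leaving out control 3 and taurine 3 turned DDX1 and DHX9 (-0.0037 each), DDX24 (0.04), DDX31 (0.03), DDX3X (0.13), DDX41 (0.07), DDX54 (0.02) and DDX55 (0.10). Between taurine and control, the same step turned DDX19B (-0.05), DDX23 (0.25) and DDX25 (-0.31), library size only DHX9 (0.02), limma-voom DHX33 (-0.09) and the length trend DDX52 (-0.04). DHX36 turned there with DESeq2, its size factors and the length trend (-0.02 each), the compared groups only (-0.01) and the 5 CPM filter (-0.003).

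Leaving out 1 library turned the sign of these genes (members, and CNOT1, EIF4A2 and MOV10L1 of the other lists), with the lowest and highest values in brackets. With microplastics they were DDX1 (-0.03 to 0.25), DDX39A (-1.00 to 0.76), DDX47 (-0.12 to 0.42), DDX59 (-0.38 to 0.04) and DHX16 (-0.12 to 0.04). With taurine added they were DDX20 (-0.21 to 0.05), DDX24 (-0.50 to 0.06), DDX31 (-0.30 to 0.04), DDX3X (-0.61 to 0.14), DDX41 (-0.83 to 0.08), DDX47 (-0.04 to 0.56), DDX52 (-0.31 to 0.01), DDX54 (-0.48 to 0.03), DDX55 (-0.54 to 0.11), DHX35 (-0.46 to 0.83), DHX40 (-0.09 to 0.10) and DHX57 (-0.19 to 0.05). Between taurine and control, where no member was called, they were CNOT1 (-0.12 to 0.27), DDX11 (-0.24 to 0.55), DDX17 (-0.42 to 0.13), DDX19B (-0.09 to 0.27), DDX20 (-0.02 to 0.24), DDX21 (-0.10 to 0.18), DDX23 (-0.20 to 0.14), DDX24 (-0.24 to 0.32), DDX25 (-0.09 to 0.45), DDX27 (-0.21 to 0.87), DDX28 (-0.09 to 0.45), DDX39A (-1.38 to 0.37), DDX3X (-0.29 to 0.85), DDX42 (-0.04 to 0.27), DDX43 (-0.27 to 0.08), DDX46 (-0.01 to 0.72), DDX52 (-0.03 to 0.14), DDX55 (-0.05 to 0.60), DHX15 (-0.27 to 0.09), DHX33 (-0.71 to 0.79), DHX36 (-0.10 to 0.11), DHX38 (-0.04 to 0.16), DHX8 (-0.08 to 0.28), DHX9 (-0.14 to 0.09), EIF4A2 (-0.02 to 0.18) and MOV10L1 (-0.08 to 0.70). DDX25 remained the most abundant member when levels were taken as counts per kilobase. Depth limits DHX33, DHX34 and DDX53, which had at most 15 reads in any library.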
